A study of Mus musculus with 4 samples.

Results

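Macrophages exposed to the type 2 cytokines IL-4 and IL-13 signal through the IL-4 receptor and the transcription factor STAT6 and take up a state known as alternative activation. In the mouse, this state is recognised by the resistin-like protein RELMα, by chitinase-like proteins and by C-type lectin receptors. Chitinase-like proteins share the fold of chitinases but do not cleave chitin, and one of them, Chil3 (also called Ym1), is made constitutively by the macrophages that live in the alveoli of the lung (alveolar macrophages, AMs). Of the 54532 genes in the count table, 8 genes of this kind were taken by name: the chitinase-like genes Chil1, Chil3 and Chil4 and the chitinase gene Chia1, the resistin-like gene Retnla, the lectin receptor genes Mrc1 and Mgl2, and the growth factor gene Pdgfc.

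The 4 bulk RNA-seq libraries were made from AMs of adult female wild-type mice, which by the methods of the study were on a BALB/c background. The Control group (2 libraries) had no tumor, and the Tumor group (2 libraries) had been inoculated 2 weeks earlier with 4T1, a metastatic line of mammary carcinoma from the mouse, as a primary tumor. For AMs stained alongside, the study names the gate CD45+ CD11b- CD11c+ SiglecF+, which would leave out cells with surface CD11b such as neutrophils, and its text treats the sequenced AMs together with these without giving the gate for the libraries separately. How many mice went into a library is not given in the sources used here, so the p-values measure the spread between 2 libraries, which may be technical. Totals lay between 16167147 and 19205737 counts per library. All 14 AM markers were detected in every library, and all 14 were lower in Tumor, at a median log2 fold change of -0.52 under the scaling used here (TMM, trimmed mean of M values). All 14 were called lower (adjusted p under 0.05), beside 24.8% of all genes tested. When the libraries were instead scaled on these 14 markers, 8 were called higher and 6 lower, beside 78.7% and 3.08% of all genes tested. Transcripts of other cells rose in the same libraries. The summed level of 5 eosinophil markers went from between 0.480 and 0.506 CPM (counts scaled to library size) in Control to between 2201 and 2221 CPM in Tumor, and that of 10 neutrophil markers from between 47.4 and 47.7 to between 3203 and 3250 CPM. A 10-gene hepatocyte list went from between 0.693 and 1.14 to between 706.4 and 706.9 CPM. Fewer cells of a type and less RNA per cell cannot be told apart in such libraries.

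**Figure D1:**
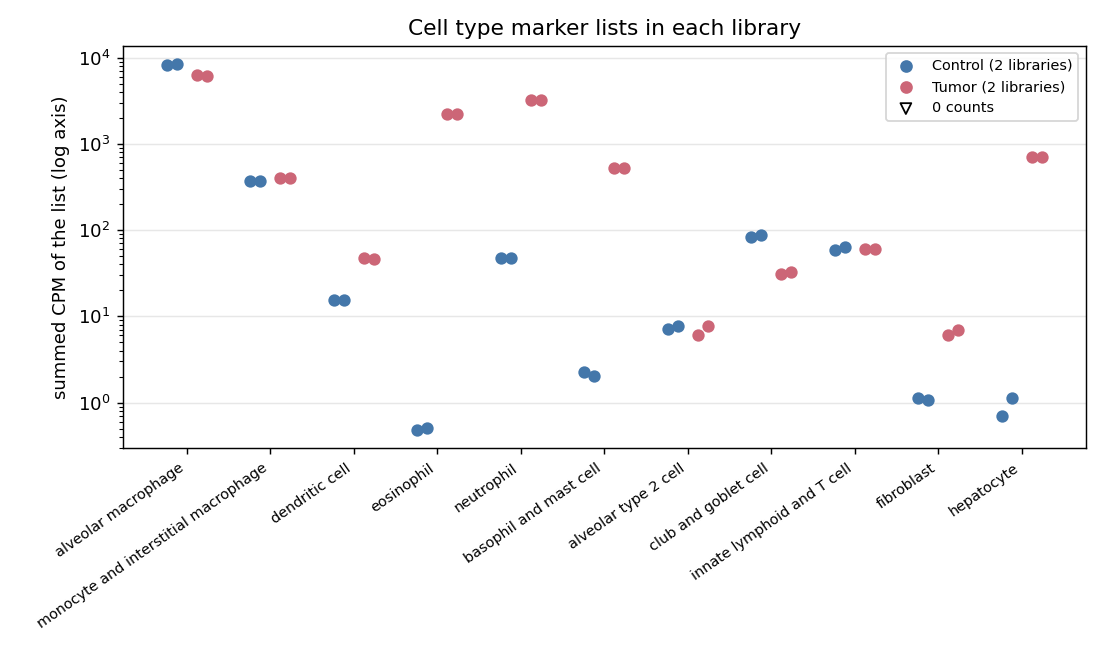
Summed CPM (y axis, log scale) of each cell type marker list (x axis) in every library, with Control in blue and Tumor in red. Eosinophil, neutrophil, basophil and mast cell, and hepatocyte lists were far higher in both Tumor libraries, while the AM list was lower.

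Chil3 and Chil4 are neighbours on the minus strand of chromosome 3, 33925 bases apart, and their transcripts and promoters are close in sequence. The 250 bases before each RefSeq start are printed because these near-identical promoters belong to genes at opposite ends of the expression range. The RefSeq start of Chil3 is also its start in the count table, whereas that of Chil4 lies 28 bases inside the gene of the count table, so the last 28 bases printed for Chil4 fall within that gene. The sequences are from RefSeq (build GRCm38.p6), read 5′ to 3′ on the minus strand, with Chil3 at chr3:106167565-106167814 and Chil4 at chr3:106219480-106219729. Within the stretch where the printed sequences could be aligned, capitals mark bases that differ from, or are missing in, the other promoter. The first 28 bases of Chil3 and the last 28 of Chil4 lie outside that stretch and are in lower case.
Chil3: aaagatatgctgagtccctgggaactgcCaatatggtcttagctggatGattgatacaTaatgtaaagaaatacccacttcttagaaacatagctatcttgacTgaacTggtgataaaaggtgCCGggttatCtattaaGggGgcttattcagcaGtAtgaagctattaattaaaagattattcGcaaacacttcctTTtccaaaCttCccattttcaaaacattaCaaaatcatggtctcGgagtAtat
Chil4: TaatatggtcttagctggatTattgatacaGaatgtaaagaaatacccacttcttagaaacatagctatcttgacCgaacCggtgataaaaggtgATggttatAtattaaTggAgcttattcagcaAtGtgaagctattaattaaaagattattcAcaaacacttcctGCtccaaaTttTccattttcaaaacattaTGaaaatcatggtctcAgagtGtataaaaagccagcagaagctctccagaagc
Over the 223 aligned positions the promoters were 90.1% identical, with 20 mismatches and 2 gap positions. Both hold the letters TTCTTAGAA, a match to the STAT-type pattern TTCNNNGAA, at -172 from the start of both genes as the count table places them (at -200 from the RefSeq start of Chil4). Both strands were searched, and 8.30% of 32851 RefSeq promoter windows of 300 bases hold this pattern. The longer pattern with 4 free bases between TTC and GAA, which STAT6 is known to bind, was found in 6.95% of all windows and, among the 8 members, all of which had a promoter sequence, in Retnla alone, as TTCACAAGAA at -145 from its RefSeq start and -87 from its start in the count table. A match of letters is a description and not a site of binding.

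Of the 8 genes, 6 had enough counts to be tested, and all 6 differed between Tumor and Control with an adjusted p under 0.05 (edgeR's quasi-likelihood test, Benjamini-Hochberg adjustment over all genes tested). This has to be read against a background in which 53.8% of the 14256 genes tested passed the same threshold. Chil1, Retnla and Mgl2 were higher in Tumor, where 29.0% of all genes tested were called higher, and Chil3, Mrc1 and Pdgfc were lower, where 24.8% were. Over the 6 genes the log2 fold change had a median of 0.81, against 0.02 for all genes tested. The 3 lower genes were the 3 most abundant members per gene length in Control, and each changed by less than 2-fold, where 3.01% of genes tested were called lower by at least that much. All 3 higher genes changed by more than 2-fold, whereas 12.9% of genes tested were called higher by at least that much. The direction of the 3 falls rests on the scaling of the libraries. When the libraries were scaled on the 14 AM markers, none of which is a member, the median of all genes moved up by 0.66 on the log2 scale, 5 members were called higher and none was called lower by edgeR's test, with Pdgfc the member no longer called. Under that scaling 78.7% of all genes tested were called higher and 3.08% lower. The 14 markers themselves ranged from -0.05 (Abcg1) to -2.13 (Fabp4) on the log2 scale under TMM. When scaled on them, 8 of the 14 were called higher and 6 lower, so the size of the shift depends on the markers chosen.

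**Figure D2:**
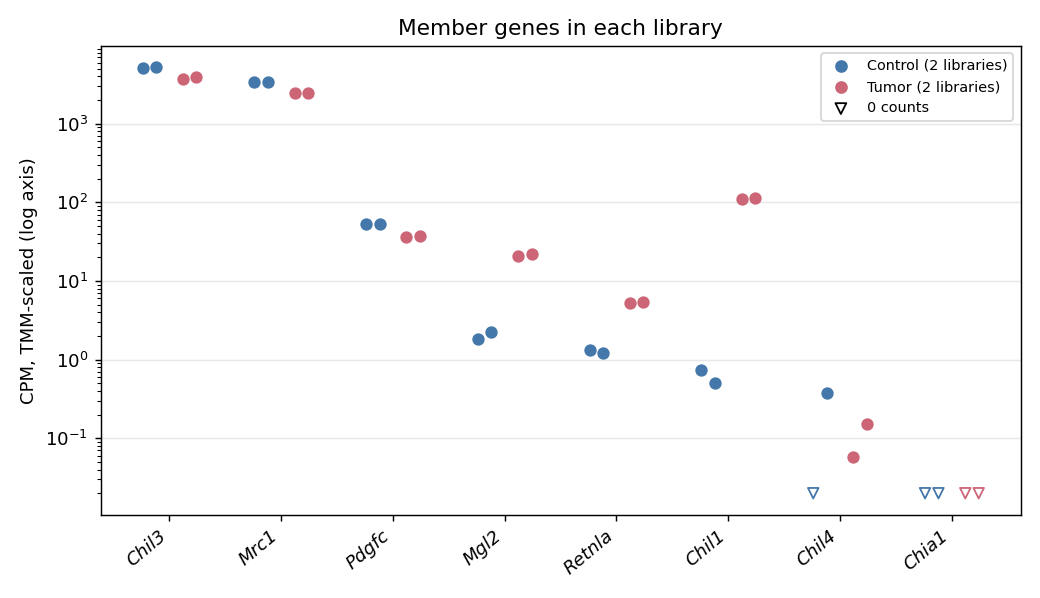
CPM (y axis, log scale) of the 8 genes (x axis, ordered by their Control mean) in each library, with Control in blue, Tumor in red and open triangles for 0 counts. In the 6 tested genes the Control and Tumor libraries did not overlap. The share of all genes tested without overlap was not determined, and 53.8% of them were called. Chil3 and Mrc1 were far above the other members in every library, and Chia1 was at 0. Chil3, Mrc1 and Pdgfc were lower in Tumor under TMM scaling, which turned under scaling on AM markers.

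Among the chitinase-like genes, Chil3 dominated in both groups. It was at 5089 and 5233 CPM in the Control libraries and at 3660 and 3891 CPM in the Tumor libraries. Both Tumor libraries were below both Control libraries, yet Chil3 was still among the most abundant transcripts in each group. On a scale per gene length (TPM, counts per length scaled to the same total), it ranked 5 of all genes in Control, at 10010 ± 159 TPM (SD, n = 2), and 8 in Tumor, at 7384 ± 349 TPM (SD, n = 2). The log2 fold change was -0.45 ± 0.0195 (SE, adjusted p = 1.61e-17 by edgeR), a fall under TMM scaling that turned into a rise of 0.21 under scaling on AM markers. Chil3 (ENSMUSG00000040809) spans 106147554 to 106167564 on chromosome 3 (GRCm38, minus strand).

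Chil4 (also called Ym2) was at the limit of detection beside this abundant neighbour. Control held 0 and 6 counts of it and Tumor 1 and 3, too few to be tested, and the libraries of the 2 groups overlapped. Of all stretches of 50 bases in the annotated Chil4 transcripts, 11.0% also occur in transcripts of another gene, most often Chil3, and for Chil3 the share was 26.9%. At 100 bases the shares were 2.03% and 4.93%. A few reads could therefore have been assigned to either gene, and the 6 counts of Chil4 stood in a library with 82699 counts of Chil3. Chia1, which encodes the acidic mammalian chitinase, an active enzyme known from stomach and lung epithelium, had 0 counts in all 4 libraries. The floor of 3 counts, which covers counting error only, puts its level at no more than 0.153 to 0.190 CPM, depending on the library. Chil4 (ENSMUSG00000063779) lies at chr3:106201490-106219507 on the minus strand and Chia1 (ENSMUSG00000062778) at chr3:106113229-106132120 on the plus strand. Epithelial markers were low but present in the same libraries. The 6 alveolar type 2 markers summed to between 7.19 and 7.72 CPM in Control and between 5.998 and 7.79 CPM in Tumor, and the 5 club and goblet cell markers to between 84.1 and 87.8 and between 31.0 and 32.5 CPM, with 2 markers of each list called lower and none higher under TMM scaling (24.8% of all genes tested were called lower). Under scaling on AM markers, 2 of the 4 tested type 2 markers were called higher and none lower, and 1 of the 5 club and goblet cell markers was called higher and 2 lower. Of all genes tested, 78.7% were called higher and 3.08% lower under that scaling.

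Chil1, which encodes a secreted chitinase-like protein also known as BRP-39 and made by several myeloid and epithelial cells, changed the most. It was at 0.746 and 0.506 CPM in the Control libraries (14 and 8 counts) and at 109.8 and 115.0 CPM in the Tumor libraries (1904 and 2260 counts). The groups were far apart, with a log2 fold change of 7.45 ± 0.125 (SE, adjusted p = 4.27e-27 by edgeR), and 98.3% of all genes tested had a lower fold change. Without one library at a time this value lay between 7.20 and 7.77. In TPM, Chil1 moved from rank 14385 to rank 1238 of all genes, and Tumor libraries held 33.3 and 33.8 Chil3 counts per Chil1 count, against 6820 and 10300 in Control. Chil1 (ENSMUSG00000064246) lies on the plus strand of chromosome 1, from 134182176 to 134190181, and shares no stretch of 50 bases with transcripts of other genes. All 10 neutrophil markers rose in the same libraries, led by S100a9, an abundant calcium-binding protein of neutrophils, from 0.668 ± 0.0401 to 1084 ± 22.4 CPM (SD, n = 2), and 4 of the 10 were at the floor in Control. The part of such transcripts in the Chil1 level was not tested.

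Of 6 family members outside the 8 genes, 4 were tested, of which 2 were called higher, 1 lower and 1 was not called, beside 29.0% higher and 24.8% lower among all genes tested. Chil5, which lies in the same chromosome 3 cluster, was at 0 counts in Control throughout and at 40 and 34 in Tumor, at least 9.12-fold higher. Of its stretches of 100 bases, 12.6% also occur in transcripts of another gene model, Gm42722. Ovgp1, the oviductin gene of that cluster, rose from 20 and 10 to 43 and 28 counts, with a log2 fold change of 1.16 ± 0.403 (SE, adjusted p = 0.0168 by edgeR). Chit1, which encodes the chitinase chitotriosidase and lies 30635 bases from Chil1, had 0 and 1 counts in Control and 8 and 10 in Tumor, and Chil6 had 3 counts in one Tumor library and 0 elsewhere. Neither was tested. Chid1, the gene of a chitinase-domain protein, was called lower, with 401 and 376 counts in Control, 337 and 361 in Tumor and a log2 fold change of -0.25 ± 0.1001 (SE, adjusted p = 0.0341 by edgeR), which became 0.40 under scaling on AM markers. Ctbs, which encodes the lysosomal enzyme chitobiase, was not called (log2 fold change 0.20, adjusted p = 0.146 by edgeR). Under scaling on AM markers it was called higher at 0.86, as were all 4 tested genes of this list, beside 78.7% of all genes tested.

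**Figure D3:**
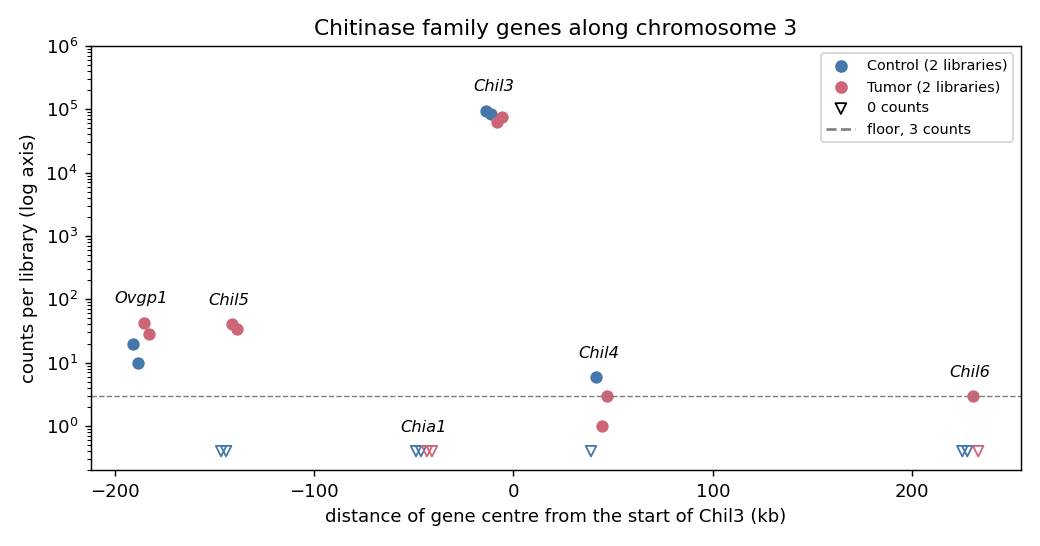
Counts per library (y axis, log scale) of the chitinase family genes on chromosome 3 against the distance of the gene centre from the start of Chil3 (x axis, kb), with Control in blue, Tumor in red, open triangles for 0 counts and a dashed line at the floor of 3 counts. Chil3 held between 63466 and 95522 counts, while no other gene of the cluster exceeded 43.

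Genes of arginine and polyamine metabolism, in which macrophage activation states are known to differ, were read beside the members. Nos2, the inducible nitric oxide synthase that marks classical activation, went from 1 and 0 counts in Control to 118 and 152 in Tumor, at least 35.9-fold higher. Ass1, which resynthesises arginine from citrulline, rose by 0.45 ± 0.146 on the log2 scale (SE, adjusted p = 0.0108 by edgeR). Agmat, which encodes agmatinase, had 0 counts in Control and 16 and 12 in Tumor, at least 3.22-fold higher. Of 14 genes of arginine and polyamine metabolism, 5 were higher, 6 were lower and 3 were not called, beside 29.0% higher and 24.8% lower among all genes tested. The lower genes included both cationic amino acid transporters, Slc7a1 at -0.84 and Slc7a2 at -0.41, of which Slc7a2 became higher by 0.25 under scaling on AM markers while Slc7a1 stayed lower, at -0.18. Under that scaling 13 of the 14 genes were called higher and 1 lower, beside 78.7% higher and 3.08% lower among all genes tested.

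Of 4 genes listed for the urea cycle of the liver, 3 were tested, and Nags had too few counts to be tested. All 3 were called higher under both scalings, beside 29.0% of all genes tested under TMM and 78.7% under scaling on AM markers. Slc25a15 was already present in Control, at 141 and 123 counts against 182 and 204 in Tumor. Its log2 fold change was 0.45 ± 0.144 (SE, adjusted p = 0.00989 by edgeR). Cps1, which encodes the first enzyme of the cycle, went from 0 counts in each Control library to 480 and 492 in Tumor, at least 131.9-fold higher. Otc, the next enzyme, was at 0 counts in Control and at 41 and 39 in Tumor, at least 10.5-fold higher. All 10 hepatocyte markers rose, led by Alb (albumin) with 0 counts in Control and 8036 and 9358 in Tumor, and 9 of the 10 were at the floor in Control. The part of these transcripts in the member levels was not tested.

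Retnla encodes RELMα, a secreted protein that IL-4 induces in macrophages. It was at 1.33 and 1.20 CPM in Control (25 and 19 counts) and at 5.31 and 5.45 CPM in Tumor (92 and 107 counts). The Tumor libraries were close to each other and above both Control libraries, and the log2 fold change was 2.07 ± 0.251 (SE, adjusted p = 5.42e-08 by edgeR). Its family neighbour Retnlg, known from neutrophils and lying 28159 bases away on chromosome 16, changed far more, from 17 and 13 counts to 12835 and 14826. Its log2 fold change was 9.74 ± 0.0638 (SE, adjusted p = 1.59e-36 by edgeR). Control libraries held 1.47 and 1.46 Retnla counts per Retnlg count, against 0.00717 and 0.00722 in Tumor. Retnlb, also of this family, had 0 counts in all libraries, and Retn (resistin) had 2 and 0 counts in Control and 9 and 11 in Tumor. Retnla (ENSMUSG00000061100), a gene of 4 exons at chr16:48842551-48844461 on the plus strand, shares no 50-base stretch with other transcripts, Retnlg included.

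Mrc1 encodes the mannose receptor CD206, an endocytic lectin of tissue macrophages and an accepted marker of AMs as well as of alternative activation. It was at 3443 and 3395 CPM in Control and at 2463 and 2476 CPM in Tumor. The log2 fold change was -0.47 ± 0.0158 (SE, adjusted p = 5.02e-20 by edgeR), a fall under TMM scaling that became a rise of 0.19 under scaling on AM markers. The gene (ENSMUSG00000026712) has 30 exons at chr2:14229392-14332057 on the plus strand. On the TPM scale Mrc1 ranked 58 of all genes in Control and 96 in Tumor. Mrc1 and Chil3 changed by nearly the same amount. There were 1.48 and 1.54 Chil3 counts per Mrc1 count in Control and 1.49 and 1.57 in Tumor, and the groups overlapped. The same held against Itgax, the AM integrin CD11c, with 2.45 and 2.40 Mrc1 counts per Itgax count in Control and 2.37 and 2.50 in Tumor. Ly75, a relative of the mannose receptor also known as DEC-205, changed by -0.48 ± 0.0239 (SE, adjusted p = 5.10e-16 by edgeR), and by 0.18 under scaling on AM markers.

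Mgl2 encodes the galactose-type lectin CD301b, known from dendritic cells and alternatively activated macrophages. It was at 1.81 and 2.22 CPM in Control (34 and 35 counts) and at 20.8 and 21.9 CPM in Tumor (360 and 431 counts). The log2 fold change was 3.41 ± 0.163 (SE, adjusted p = 1.71e-16 by edgeR), higher than that of 94.8% of genes tested. Mgl2 (ENSMUSG00000040950) lies at chr11:70130329-70137550 on the plus strand. The paralog Clec10a, which encodes CD301a and lies 18646 bases away on chromosome 11, was not called. It had 32 and 38 counts in Control and 24 and 30 in Tumor, with a log2 fold change of -0.48 ± 0.327 (SE, adjusted p = 0.225 by edgeR). The ratio of Mgl2 to Clec10a counts went from 1.06 and 0.921 to 15.0 and 14.4. Of the 50-base stretches of Mgl2, 13.1% are shared with another gene, chiefly Clec10a, so single reads can be uncertain between them. Of 8 dendritic cell markers, 4 were called higher, 2 lower and 2 were not called under TMM scaling (29.0% higher and 24.8% lower among all genes tested), and their sum went from between 15.3 and 15.4 to between 46.7 and 47.8 CPM. The largest of the 4 rises was that of Cd209a, a lectin of monocyte-derived dendritic cells, at 4.05 ± 0.228 (SE, log2 scale, adjusted p = 6.84e-15 by edgeR). The 8 monocyte and interstitial macrophage markers summed to between 369.6 and 371.1 CPM in Control and between 396.8 and 403.3 CPM in Tumor, a sum made up mostly of Csf1r. Of these 8, 3 were called higher, among them Ccr2 at 1.33 and Ly6c2 at 2.46 on the log2 scale, and 4 were called lower under TMM scaling, namely Cx3cr1 at -1.71, C1qa at -0.87, C1qb at -1.27 and C1qc at -1.09, against the same shares over all genes. Under scaling on AM markers 6 dendritic cell markers were called higher and 1 lower, and 4 monocyte and interstitial macrophage markers were called higher and 2 lower, Cx3cr1 and C1qb. Among all genes tested, 78.7% were called higher and 3.08% lower under that scaling. The 4 fibroblast markers, all of them higher, summed to between 1.08 and 1.12 CPM in Control and between 6.11 and 7.02 CPM in Tumor. The part of these cell types in the Mgl2 level was not tested.

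Pdgfc, a growth factor for mesenchymal cells, was at 53.6 and 53.2 CPM in Control and at 36.5 and 37.4 CPM in Tumor. The log2 fold change was -0.53 ± 0.0680 (SE, adjusted p = 1.60e-07 by edgeR), and it became 0.13 and was not called (adjusted p = 0.0900) under scaling on AM markers. Pdgfc (ENSMUSG00000028019) lies at chr3:81036416-81214040 on the plus strand. Pdgfb, another ligand of the family, fell by more. It went from 1443 and 1235 counts in Control to 224 and 232 in Tumor, with a log2 fold change of -2.65 ± 0.0790 (SE, adjusted p = 3.07e-21 by edgeR) and still -1.99 under scaling on AM markers. There were 1.44 and 1.47 Pdgfb counts per Pdgfc count in Control, but 0.354 and 0.316 in Tumor. The receptor gene Pdgfra was not called (log2 fold change -0.21, adjusted p = 0.537), and Pdgfa, Pdgfd and Pdgfrb had too few counts to be tested.

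**Figure D4:**
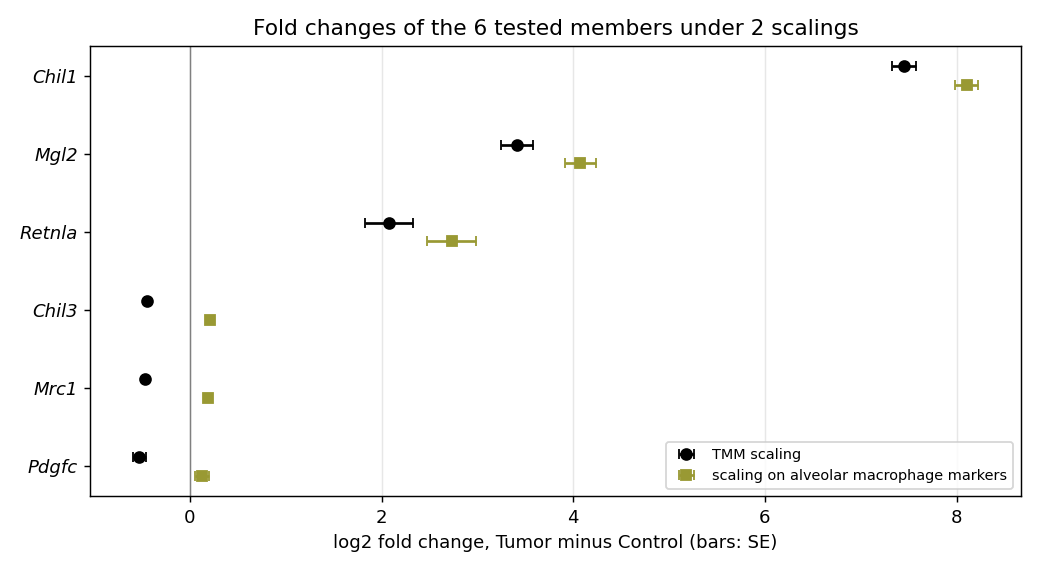
Log2 fold change of Tumor against Control (x axis, bars are SE) for the 6 tested genes (y axis) with TMM scaling (black circles) and with scaling on AM markers (olive squares). Chil1, Mgl2 and Retnla were higher under both, while Chil3, Mrc1 and Pdgfc were lower with TMM and above 0 with the other scaling.

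The order of the 8 genes by level therefore differed between the groups. Per length, the order in Control was Chil3, Mrc1, Pdgfc, Retnla, Mgl2, Chil1, Chil4 and Chia1. Chil1 and Mgl2, at 0.707 ± 0.194 and 3.04 ± 0.420 TPM in Control (SD, n = 2), were at 128.0 ± 4.73 and 32.5 ± 1.40 TPM in Tumor. This placed Chil1 directly behind Mrc1 and placed Mgl2, Retnla and Pdgfc next. Retnla, at 28.7 ± 0.647 TPM in Tumor (SD, n = 2), was below Mgl2 without overlap of the libraries, and Pdgfc followed at 23.2 ± 0.496 TPM.

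The genes of the signalling path upstream were read next. Il4, which encodes a cytokine of basophils, eosinophils and T helper 2 cells, had 3 and 4 counts in Control and 78 and 92 in Tumor, a log2 fold change of 4.46 ± 0.390 (SE, adjusted p = 1.04e-10 by edgeR). Il13 was at 0 counts in Control and at 33 and 19 in Tumor, at least 5.09-fold higher. The study displayed chosen genes of immunoregulation from these same samples, in a heatmap whose caption does not list them. The rise of both cytokine genes comes from the same libraries, so it is not independent evidence. The receptor gene Il4ra rose from 137.3 ± 1.69 to 216.8 ± 5.36 CPM (SD, n = 2), by 0.66 ± 0.0360 on the log2 scale (SE, adjusted p = 3.62e-15 by edgeR). Stat6 rose by 0.17 ± 0.0284 (SE, adjusted p = 1.16e-05 by edgeR). The kinase gene Jak3 rose by 1.30 and the feedback inhibitor gene Socs1 by 1.31. Of the 13 genes on this list, 10 were higher, 1 was lower, 1 was not called and 1 was not tested, with a median log2 fold change of 0.56 against 0.02 for all genes tested, of which 29.0% were called higher and 24.8% lower. Under scaling on AM markers all 12 tested genes of the list were called higher, beside 78.7% of all genes tested. In the same libraries all 6 basophil and mast cell markers rose, 5 of them from the floor, and their sum went from between 2.03 and 2.29 to between 522.4 and 528.6 CPM. Hdc, the histamine-forming enzyme, was the most abundant of them, at 8101 and 9401 counts in Tumor against 38 and 27. The 6 innate lymphoid and T cell markers summed to between 58.9 and 63.0 CPM in Control and to 60.5 CPM in each Tumor library, a sum made up mostly of Rora, which was called lower under TMM scaling (log2 fold change -0.21). Of the 5 tested, 1 was called higher, the T cell receptor complex gene Cd3d, from 16 and 6 to 91 and 140 counts, at 3.28 ± 0.309 on the log2 scale (SE, adjusted p = 4.73e-10 by edgeR). Under scaling on AM markers 4 of the 5 were called higher, Rora among them at 0.45, beside the 78.7% of all genes tested. The part of these cells in Il4 and Il13 was not tested.

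Of 14 other genes associated with alternative activation, 2 were higher, 9 were lower and 3 were not called, beside 29.0% higher and 24.8% lower among all genes tested. Their median log2 fold change was -0.39, against 0.02 for all genes tested. Under scaling on AM markers 7 of the 14 were called higher and 2 lower. The 2 higher genes were those of the chemokines CCL17 and CCL22, which attract cells bearing CCR4. Ccl17 went from 17 and 9 to 194 and 188 counts, a log2 fold change of 3.77 ± 0.249 (SE, adjusted p = 2.54e-13 by edgeR), and Ccl22 from 136 and 116 to 607 and 609 counts, a log2 fold change of 2.18 ± 0.113 (SE, adjusted p = 1.10e-15 by edgeR). Whether Ccl22 was among the genes displayed by the study is not given in its text. Cd163, the haptoglobin-haemoglobin scavenger receptor, had the largest fall on this list, from 122 and 87 to 22 and 31 counts, at -2.07 ± 0.242 on the log2 scale (SE, adjusted p = 3.01e-08 by edgeR), and it stayed lower under scaling on AM markers, at -1.41. Clec7a, the β-glucan receptor dectin-1, changed by -0.57 ± 0.0190 (SE, adjusted p = 4.58e-20 by edgeR), or by 0.09 under scaling on AM markers. Across all 62 genes of the 8 pathway lists, 51 were tested, 23 were called higher and 19 lower. With scaling on AM markers, under which 78.7% of all genes tested were called higher and 3.08% lower, 41 were higher and 4 lower, the 4 being Cd163, Fn1, Pdgfb and Slc7a1.

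**Figure D5:**
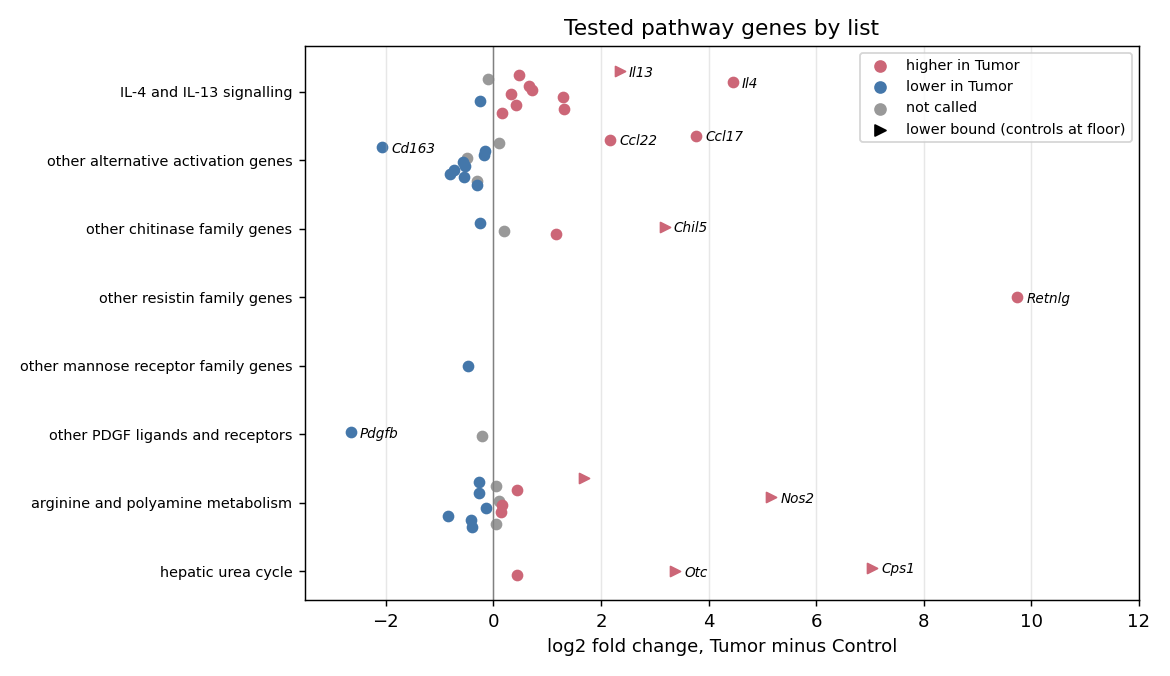
Log2 fold change of Tumor against Control under TMM scaling (x axis) for the 51 tested pathway genes by list (y axis), in red where called higher, blue where called lower and grey where not called, with triangles for lower bounds of genes at the floor in Control. Retnlg, Cps1 and Nos2 lie farthest right and Pdgfb and Cd163 farthest left; of the 19 falls, those of Pdgfb, Cd163, Fn1 and Slc7a1 were still called under scaling on AM markers.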

How the data were processed

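AMs were profiled in 2 Control and 2 Tumor libraries by RNA-seq (NEBNext Ultra RNA kit, total RNA, Illumina HiSeq). Per the methods and the labels, the authors aligned paired-end reads with HISAT2 2.0.5 and counted them with featureCounts. The deposited values are raw read counts for each gene, as whole numbers. The build, annotation release and strandedness of counting are not given in the sources used here. Of the gene IDs, 54409 were found in GENCODE M21 (GRCm38), 98.3% of them with identical coordinates, as for all 8 members.

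The count model was that of edgeR 4.0.16 (R 4.3.3). filterByExpr (minimum count 10) kept 14256 genes, library sizes were scaled by TMM (factors 0.977 to 1.02), and glmQLFTest compared the groups with 2 residual degrees of freedom and a threshold of 0.05 after Benjamini-Hochberg adjustment over all genes tested. CPM used TMM-scaled library sizes, and TPM used the deposited gene length. SEs are the log2 fold change over the square root of F. Where both libraries of Control had 3 counts or fewer, a bound was given, from the lower Tumor CPM and the higher Control floor. The test was first tried on simulated counts in which few genes changed, in both directions, by 0.5, 1 or 2 on the log2 scale. It called 84.5%, 94.7% and 98.1% of these in the right direction, and 2.13% of its calls were false. The simulation held no broad change such as the 53.8% of genes called here, so it cannot decide between the scalings. Alternatives were DESeq2 size factors, total counts, scaling on AM markers, 2 other filters, the Wald test of DESeq2 1.42.0, voom of limma 3.58.1, a replicate block and leaving out each library.

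The members and gene lists were chosen with earlier results of these data known, and 2 listed genes are not reported here. From each pathway list, called genes that changed at least 2-fold were named (up to 6), with Il4, Il13, Il4ra, Stat6, Nos2, Ass1, Cps1 and Otc in any case, and for marker lists of the lists that moved with a member mostly the gene with the highest counts. Clec10a, Clec7a, Ly75, Slc7a1, Slc7a2, Slc25a15, Fn1, Itgax, Abcg1, Fabp4, Pdgfra, Gm42722, Nags, Chid1, Ctbs, Rora, Cd3d, Csf1r, Ccr2, Ly6c2, Cx3cr1, C1qa, C1qb, C1qc and the family members at few counts were named after their values were seen. Promoters were aligned with Biopython 1.88.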

Additional observations from a re-analysis of the deposited data

How the results depend on the processing

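Scaling on the 14 AM markers was the alternative that changed directions. It turned the log2 fold changes of Chil3, Mrc1 and Pdgfc to 0.21, 0.19 and 0.13, the last one not called, and raised the number of genes called from 7671 to 11659 of 14256, of which 11220 were higher and 439 lower, against 4136 and 3535 under TMM. The 3 rises of Chil1, Mgl2 and Retnla kept their direction and call under every alternative in which they were tested, and so did the 3 falls under every other alternative. Under a filter of 10 or more counts in each library Chil1 was not tested. The number of members called was 5 or 6 throughout, DESeq2's Wald test called 5858 genes in all, and between 33 and 45 of the pathway genes were called against 42. With the replicate number as a block, 6 members and 7446 genes were called. The labels give no shared source for libraries with the same number, and deviations of same-numbered libraries correlated at -0.00278 across genes. Leaving out each library gave between 6515 and 7470 genes and 6 members, with the lone library of a group assumed to vary like the others. Depth limits Chil4 and Chia1, whose levels were at or near the floor.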

Other observations

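Next to Mgl2 on chromosome 11, at a distance of 24141 bases, lies Asgr2, which was chosen after its values were seen. It encodes a subunit of the asialoglycoprotein receptor, a galactose-binding lectin of hepatocytes. Asgr2 went from 1 and 2 counts in Control to 78 and 104 in Tumor, at least 23.7-fold higher. Its partner Asgr1 went from 0 and 1 counts to 48 and 43, at least 11.5-fold higher.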
